A study of Mus musculus with 12 samples.

Results

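The fast fibre contractile genes are 10 genes of the fast muscle sarcomere: the myosin heavy chains Myh1, Myh2 and Myh4, the myosin light chains Myl1 and Mylpf, the fast troponin subunits Tnnc2, Tnni2 and Tnnt3, the calcium buffer Pvalb and the Z-disc protein Actn3. The members were chosen by symbol: every probe set whose only gene symbol was one of these 10 was taken. All 10 genes were on the array, with 15 probe sets, out of 18193 genes and 34945 probe sets that carry a single symbol. Myh1 had 3 probe sets, Tnni2 had 3, Myh4 had 2 and the other 7 genes had 1 each. Skeletal muscle of C57Bl/6 mice, an inbred strain, was profiled on 12 Affymetrix arrays in 3 groups of 4. In the 5-day group a high-fat diet (HFD) with 46% of its calories from fat was given for 5 days, and in the 42-day group for 42 days. The chow group stayed on standard chow with 13% of calories from fat. All mice ate chow up to 6 weeks of age, when the HFD groups were switched. Mice of the 42-day group were thus older at the end of their diet than those of the 5-day group. Time on the diet and age cannot be told apart between these 2 groups. The study's title names insulin resistance as its subject. The labels name neither the muscle taken, nor the sex, nor how old the chow mice were when sampled, nor whether replicates came from separate animals. The p-values below therefore rest on spread between these samples, which may be technical, and not on spread known to be between animals. They also draw on a variance shared over all genes, described with the test below.

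Fast fibres contract quickly because their myosin heavy chains hydrolyse ATP quickly. In mice the fast heavy chains are Myh2 (type IIa), Myh1 (type IIx) and Myh4 (type IIb, the fastest), and limb muscles are mostly built of fast fibres. Calcium released from the sarcoplasmic reticulum binds troponin C, which relieves the block that troponin I puts on actin and myosin. Parvalbumin then helps to take the calcium up, and alpha-actinin-3 anchors the thin filaments of fast fibres. The heavy chains and the troponin subunits have counterparts in slow fibres.

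The 3 heavy chain genes lie side by side on mouse chromosome 11 in the order Myh2, Myh1, Myh4, with the long non-coding RNA gene Myhas between Myh1 and Myh4. Their promoters are shown because 2 of the 3 genes carry the probe sets that changed, and because the 3 share one stretch of sequence. RefSeq sequence of GRCm38.p6 was available for 7 of the 10 members (not for Tnni2, Tnnt3 and Actn3). The 250 bases before each start, all on the plus strand, span chr11:67170777-67171026 for Myh2, chr11:67199852-67200101 for Myh1 and chr11:67237562-67237811 for Myh4. Capitals mark the longest run of bases that all 3 windows share.
Myh2: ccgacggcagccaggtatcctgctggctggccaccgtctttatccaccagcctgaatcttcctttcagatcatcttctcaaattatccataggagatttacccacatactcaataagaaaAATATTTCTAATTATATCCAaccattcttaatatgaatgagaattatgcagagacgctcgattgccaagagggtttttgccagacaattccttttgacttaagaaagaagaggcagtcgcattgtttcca
Myh1: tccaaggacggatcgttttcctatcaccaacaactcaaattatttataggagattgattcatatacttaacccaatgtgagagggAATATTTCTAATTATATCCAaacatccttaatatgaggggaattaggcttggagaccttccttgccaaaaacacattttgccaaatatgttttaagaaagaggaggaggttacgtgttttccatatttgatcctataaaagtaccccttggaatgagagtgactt
Myh4: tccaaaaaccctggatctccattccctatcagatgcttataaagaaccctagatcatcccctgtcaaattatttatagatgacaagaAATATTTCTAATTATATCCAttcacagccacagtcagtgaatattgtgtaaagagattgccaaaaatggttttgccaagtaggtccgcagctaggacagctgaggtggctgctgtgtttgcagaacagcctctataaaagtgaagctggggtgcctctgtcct
The shared run, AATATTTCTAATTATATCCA, is 20 bases long. Counted from the gene's start it covers positions -130 to -111 at Myh2, -165 to -146 at Myh1 and -163 to -144 at Myh4. Of 32851 RefSeq promoter windows, 3 (0.00913%) held this run on either strand, and these were the windows of Myh2, Myh1 and Myh4. On the strand shown, the TATA-box letters TATAAA were found 2 times in the Myh4 sequence, once in that of Myh1 and not in that of Myh2. On either strand, which is a wider count, 12.4% of all windows held them. The E-box letters CANNTG, with N for any base, were found 2 times in the Myh4 sequence and in neither of the other sequences, against 66.2% of all windows. These matches describe the sequence only.

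Most members sat near the top of the array's scale. The values are log2 signals from the robust multi-array average (RMA), deposited by the authors, and on each array the brightest probe set read between 15.41 and 15.46. Only 20 of the 34945 probe sets had a mean signal of 15 or more over the 12 arrays, and 8 of these 20 belonged to members: 1 each for Tnnc2, Tnni2, Pvalb, Myl1, Myh4, Mylpf, Actn3 and Tnnt3. These 8 probe sets ranked between 5 and 17 among all probe sets by mean signal. The labelled tissue is thus matched by its defining fast fibre genes. The ranks describe positions on the array's scale and do not order the genes by the amount of RNA.

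Probe sets differed least, within and between groups, at that end of the scale. Among the 20 probe sets at 15 or more, the median within-group standard deviation (SD) was 0.016 on the log2 scale, and none of the 20 passed the test in any contrast. Their largest difference between the 42-day and chow groups was 0.0853. Among the 132 probe sets between 14 and 15 the median SD was 0.038 and 3 (2.27%) passed at 42 days against chow. Among the 4447 probe sets between 10 and 12 the median SD was 0.085, 17.7% passed, and the largest difference was 2.19. A value past the test here means an adjusted p under 0.05 in limma, a linear model fitted to all genes or probe sets together, with Benjamini-Hochberg adjustment over all of them. The fit also drew each variance toward a value common to all genes or probe sets. The brightest probe sets were thus tested against a wider spread than their own arrays showed. Whether the scanner or the probes were at their limit for the brightest members was not tested.

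**Figure D1:**
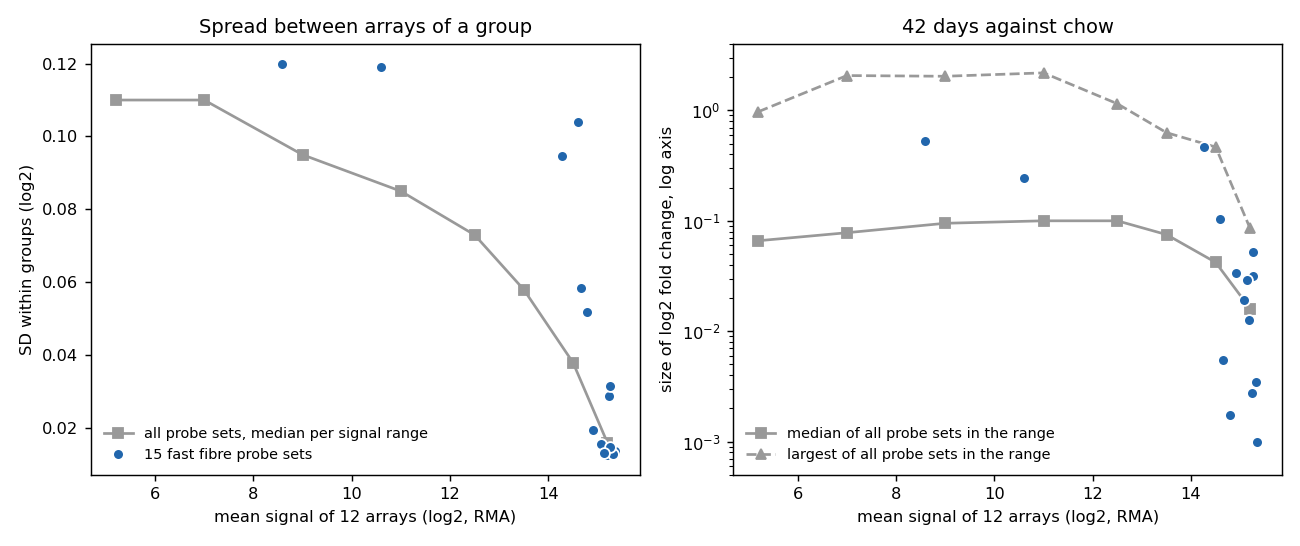
Spread and size of differences along the array's log2 signal scale. The left panel plots within-group SD against mean signal, with squares for the median of all probe sets in each signal range and blue points for the 15 member probe sets; the right panel plots, on a log axis, the median (squares) and the largest (triangles) difference between 42 days and chow. The 8 member probe sets at 15 or more lie where the median SD is 0.016 and the largest difference is 0.0853.

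At the level of genes, none of the 10 fast contractile genes passed the test for a difference between groups. Each gene was represented by its brightest probe set, and 0 of 10 passed the limma test at 5 days against chow, where 3.8% of all 18193 genes passed. At 42 days 0 of 10 passed against chow, beside 5.56% of all genes, and at 42 days against 5 days 0 of 10 passed, beside 8.52%. In the test for any difference among the 3 groups 0 of 10 passed, against 12.5% of all genes. For 10 genes these background shares lead to a count near 0 or 1, so a count of 0 is close to the background. None of the 10 reached an unadjusted p under 0.05 in limma in any of the 3 contrasts or in the joint test. The limma SE of Mylpf, Tnnc2, Tnni2, Tnnt3, Pvalb and Actn3 was 0.042 in each contrast. Their own within-group SDs lay between 0.0126 and 0.0158. With that SE, differences of the size seen at the brightest signals could hardly pass. The count of 0 therefore does not show that these genes were unchanged. In a mixed tissue such as this, fewer fibres of a type and less RNA per fibre cannot be told apart.

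The members' differences were small in size. The median log2 difference of the 10 genes was -0.011 at 5 days, 0.00037 at 42 days and 0.017 at 42 days against 5 days, beside -0.01, -0.013 and 0.0078 for all genes. The median size without regard to sign was 0.019, 0.016 and 0.022 in these contrasts, beside 0.087, 0.076 and 0.1 for all genes. The 95% intervals of all 10 genes reached at most 0.192 on the log2 scale from no difference at 5 days, 0.253 at 42 days and 0.211 between the HFD groups, each time for Myh2. Because 8 of the 10 representatives lie at a signal of 15 or more, these intervals bound the differences in signal, and their relation to differences in RNA was not tested.

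Myh4, the IIb heavy chain, was measured by a pair of probe sets that differed in outcome. The probe set that read higher, 1427026_at, gave 15.227, 15.225, 15.239 and 15.175 at 5 days, 15.237, 15.220, 15.285 and 15.222 at 42 days, and 15.232, 15.259, 15.201 and 15.261 on chow. The 3 groups overlap throughout, and the log2 differences were -0.0218 at 5 days and 0.00275 at 42 days. The second probe set, 1458368_at, gave 14.19, 14.28, 14.17 and 14.34 at 5 days, 14.50, 14.44, 14.57 and 14.52 at 42 days, and 14.22, 13.99, 13.90 and 14.06 on chow. Here all 4 arrays of the 42-day group were above every 5-day and every chow array, while the 5-day and chow groups overlap. At 42 days it was higher than on chow by 0.466 ± 0.068 (SE, n = 4 each), a 1.38-fold increase with a 95% interval of 1.25 to 1.53 and a limma adjusted p of 0.000979. The difference at 5 days, 0.203 ± 0.068 or 1.15-fold, did not pass (limma adjusted p = 0.0921). Between the HFD groups themselves it was 1.20-fold higher at 42 days (log2 0.263 ± 0.068, limma adjusted p = 0.0336), and this call was lost on leaving out any one of 7 of the 8 HFD arrays, all but replicate 4 of the 5-day group, with limma adjusted p up to 0.084. The 42-day rise against chow passed without any one array.

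Myh1, the IIx heavy chain, had 3 probe sets, of which the one with the lowest signal changed. Probe set 1452465_at gave 8.63, 8.65, 8.47 and 8.90 at 5 days, 8.72, 8.89, 8.84 and 8.77 at 42 days, and 8.24, 8.39, 8.21 and 8.26 on chow. All 8 HFD arrays were above all 4 chow arrays, and the HFD groups overlap each other. The rise at 42 days was 0.526 ± 0.079 (SE, n = 4 each), or 1.44-fold with a 95% interval of 1.28 to 1.62 (limma adjusted p = 0.00109). The rise at 5 days was 0.383 ± 0.079, or 1.30-fold with an interval of 1.16 to 1.47 (limma adjusted p = 0.0277). The 5-day call was lost without chow replicate 3 or 4 or 5-day replicate 2 or 4, with limma adjusted p up to 0.0833, while the 42-day call passed without any one array. Between 42 and 5 days the difference of 0.143 did not pass (limma adjusted p = 0.237).

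The other Myh1 probe sets gave no such difference. Probe set 1427868_x_at, which represents the gene, averaged 14.75 ± 0.033 at 5 days, 14.80 ± 0.053 at 42 days and 14.80 ± 0.065 on chow (SD, n = 4 each). Probe set 1427520_a_at averaged 14.59 ± 0.060 at 5 days, 14.69 ± 0.060 at 42 days and 14.69 ± 0.056 on chow. The groups overlap in both, and the log2 differences at 42 days were 0.00175 and -0.0055. Probe sets 1452465_at and 1427520_a_at are annotated to the same GenBank sequence, so that the annotation does not separate them by transcript. The suffix _x_at marks probe sets some of whose probes may also match other transcripts, and the heavy chain genes are close relatives, so how far each signal is particular to Myh1 is uncertain.

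Myh2, the IIa heavy chain, had the widest within-group spread among the probe sets that represent the 10 genes, with an SD of 0.104 over the 3 groups, although Myh1 1452465_at (0.12) and Tnni2 1438608_at (0.119) spread more. Its probe set gave 14.71, 14.64, 14.40 and 14.62 at 5 days, 14.62, 14.63, 14.63 and 14.72 at 42 days, and 14.49, 14.63, 14.66 and 14.42 on chow. At 5 days a single array, at 14.40, lay below the others, and the groups overlap throughout. The log2 difference was 0.042 ± 0.071 at 5 days and 0.103 ± 0.071 at 42 days (SE, n = 4 each; limma adjusted p = 0.432 at 42 days). The within-group SD was 0.133 at 5 days, 0.0446 at 42 days and 0.113 on chow.

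**Figure D2:**
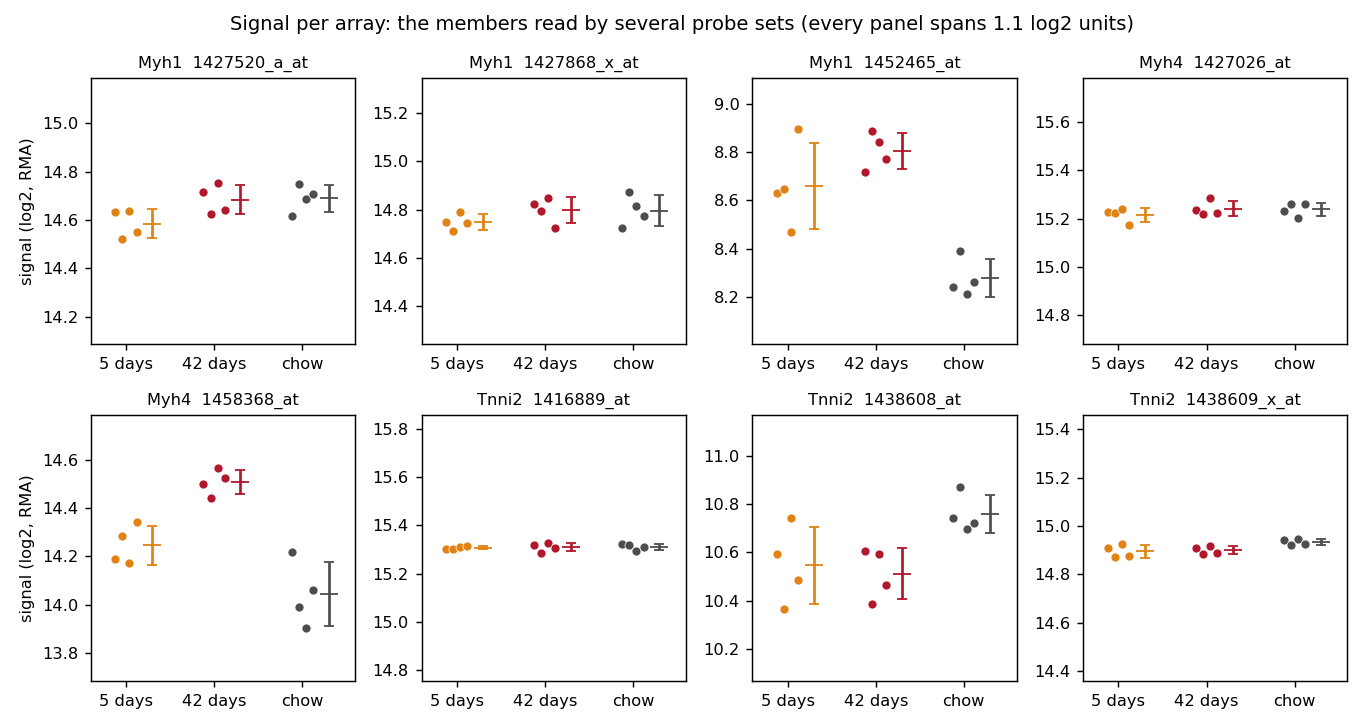
Log2 signal per array of the 8 probe sets of Myh1, Myh4 and Tnni2, with 5 days, 42 days and chow from left to right, points for single arrays, and the mean with its SD beside them (n = 4 each). Myh4 1458368_at and Myh1 1452465_at have every 42-day array above every chow array, while Tnni2 1416889_at spans 0.039 over all 12 arrays.

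The myosin light chains, which stiffen and tune the myosin neck, did not pass the test in any contrast. Myl1, the fast essential light chain, gave 15.253, 15.250, 15.250 and 15.173 at 5 days, 15.309, 15.257, 15.308 and 15.261 at 42 days, and 15.234, 15.249, 15.195 and 15.249 on chow. All 4 arrays at 42 days were above all 8 others, by a log2 difference of 0.052 against chow that did not pass the test. Mylpf, the fast regulatory light chain, ranged from 15.170 to 15.191 at 5 days, from 15.182 to 15.211 at 42 days, and from 15.176 to 15.202 on chow. Its 3 groups overlap, with SDs of 0.0093, 0.0156 and 0.0122.

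Of the troponin subunits, Tnni2, the fast inhibitory subunit, had 3 probe sets whose differences were smaller the higher their signal. Probe set 1438608_at gave 10.59, 10.37, 10.74 and 10.49 at 5 days, 10.61, 10.38, 10.59 and 10.47 at 42 days, and 10.74, 10.87, 10.70 and 10.72 on chow. All 42-day arrays were below all chow arrays, and 1 of the 4 5-day arrays lay within the chow range. The log2 difference was -0.246 ± 0.079 at 42 days (limma adjusted p = 0.0585) and -0.212 ± 0.079 at 5 days (limma adjusted p = 0.119; SE, n = 4 each). Neither passed, and the 95% interval at 42 days runs from -0.413 to -0.0787. Probe set 1438609_x_at, at a mean signal of 14.91, differed by -0.0335 at 42 days and also had all 42-day arrays below all chow arrays. Probe set 1416889_at, at a mean signal of 15.31, differed by -0.0035, and its groups overlap.

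Tnnc2, the fast calcium-binding troponin subunit, ranged from 15.320 to 15.347 at 5 days, from 15.337 to 15.370 at 42 days, and from 15.342 to 15.376 on chow. Tnnt3, the fast subunit that ties the complex to tropomyosin, ranged from 15.048 to 15.072 at 5 days, from 15.055 to 15.090 at 42 days, and from 15.071 to 15.108 on chow. In both genes the groups overlap. Tnni2 and Tnnt3 are both on chromosome 7, and Lsp1 is the protein-coding gene between them.

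Pvalb, the parvalbumin gene, gave 15.268, 15.260, 15.253 and 15.235 at 5 days, 15.244, 15.225, 15.260 and 15.232 at 42 days, and 15.282, 15.250, 15.273 and 15.282 on chow. Its values overlap between all groups. Actn3, the alpha-actinin-3 gene, gave 15.123, 15.170, 15.154 and 15.149 at 5 days, 15.117, 15.105, 15.127 and 15.111 at 42 days, and 15.148, 15.132, 15.147 and 15.149 on chow. All 4 arrays at 42 days were below all chow arrays, with group means of 15.115 ± 0.0094 at 42 days and 15.144 ± 0.0080 on chow (SD, n = 4 each). The log2 difference of -0.029 did not pass the limma test, which gave it an SE of 0.042 (limma adjusted p = 0.745).

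**Figure D3:**
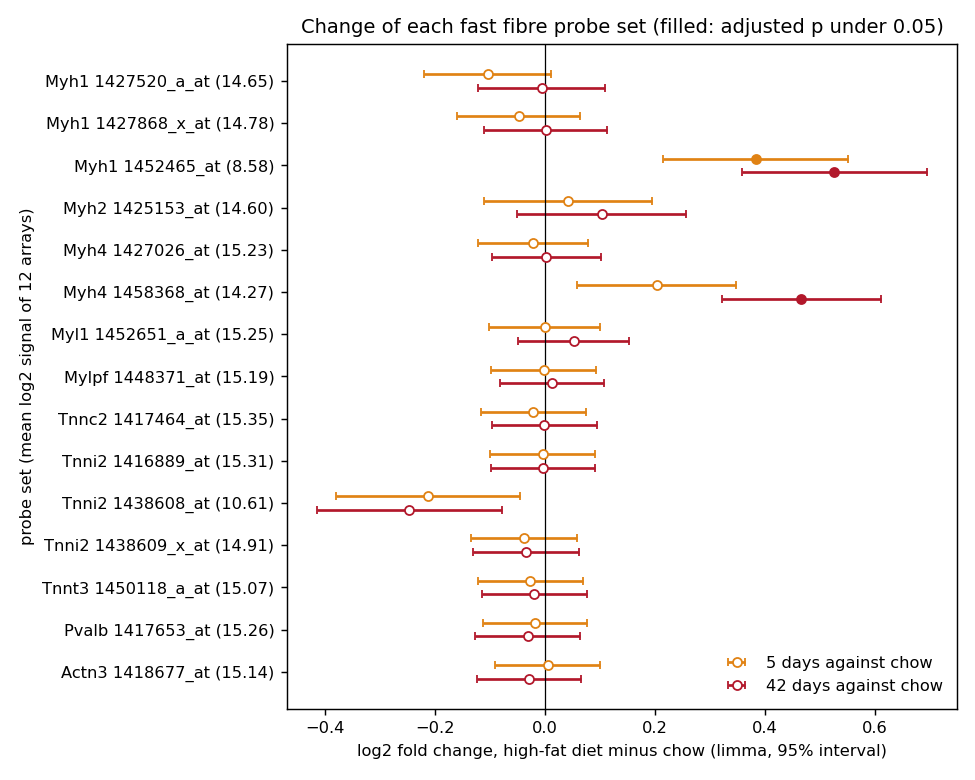
Log2 differences with 95% intervals for the 15 member probe sets, at 5 days (orange) and 42 days (red) against chow; the vertical line marks no difference and filled points passed the test. Intervals of Myh1 1452465_at and Myh4 1458368_at lie above 0 at 42 days against chow, at 0.526 and 0.466.

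Counted over probe sets, 1 of 15 (6.67%) passed at 5 days against chow, 2 of 15 (13.3%) at 42 days against chow and 1 of 15 (6.67%) at 42 days against 5 days, each of them higher in the group named first. The shares over all 34945 probe sets were 3.59%, 10.6% and 7.8%, so the members' counts lie near the background. The 2 that passed at 42 days were the Myh1 and Myh4 probe sets described above. Groups that did not overlap were seen in 1 of 15 probe sets at 5 days against chow, beside 11.8% of all probe sets. Between the 42-day and chow groups they were seen in 6 of 15 (40%), beside 16.7% of all. Of these 6, Myh1 1452465_at, Myh4 1458368_at and Myl1 were higher, and Tnni2 1438608_at, Tnni2 1438609_x_at and Actn3 were lower. Between the HFD groups they were seen in 2 of 15 (13.3%), Myh4 1458368_at and Myl1, beside 19.2% of all. The contrasts against chow share the same 4 chow arrays.

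Within a group, arrays differed little in the members. The median SD of the 15 probe sets was 0.0283 at 5 days, 0.0286 at 42 days and 0.0255 on chow, beside 0.0969, 0.0803 and 0.0976 over all probe sets. Of the 15 probe sets, 12 at 5 days, 14 at 42 days and 13 on chow had an SD below the median of all. These small SDs go with the position of the members on the signal scale given above. The probe set with the lowest member signal, Myh1 1452465_at, had SDs of 0.177 at 5 days, 0.0753 at 42 days and 0.0783 on chow.

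Of 14 other genes typical of fast fibres, none passed at 5 or at 42 days against chow, with median log2 differences of 0.006 and -0.024. Relative to 5 days, at 42 days Myoz3, a Z-disc protein that binds calcineurin, fell by 0.213 (limma adjusted p = 0.0356) and the other 13 did not pass. Atp2a1, the fast calcium pump, differed by 0.00825 at 42 days against chow, and Mybpc2, the fast myosin-binding protein C, by -0.0453, neither past the test.

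None of 14 slow fibre contractile genes passed either, although 13 of the 14 were higher in each HFD group than on chow. Their median log2 difference was 0.26 at 5 days and 0.19 at 42 days, beside -0.01 and -0.013 for all genes. The smallest limma adjusted p was 0.0675 at 5 days, for Tnnc1, the slow troponin C (log2 0.372 ± 0.11; SE, n = 4 each). At 42 days it was 0.0557, for Atp2a2, the slow calcium pump (0.329 ± 0.095). Tnni1, the slow troponin I, differed by 0.435 ± 0.13 at 42 days (limma adjusted p = 0.0618). The mean signal of the 14 genes ranged over arrays from 11.39 to 11.67 at 5 days, from 11.54 to 11.59 at 42 days, and from 11.07 to 11.63 on chow, and these ranges overlap. For the 10 fast members the corresponding ranges were 15.10 to 15.12, 15.11 to 15.15, and 15.11 to 15.14. The slow list read lower on the signal scale than the fast members, and no difference between them was tested.

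Among 17 measured sarcomere genes shared by both fibre types, Lmod2, a leiomodin that acts at the pointed ends of thin filaments, rose by 0.495 ± 0.083 at 5 days (limma adjusted p = 0.0184) and by 0.328 ± 0.083 at 42 days (limma adjusted p = 0.0344). The other 16 did not pass against chow, and the medians were -0.0015 and -0.0035. Lmod3, a further leiomodin, fell by 0.312 at 42 days against 5 days (limma adjusted p = 0.0194). None of 8 developmental sarcomere genes passed in any contrast, with a smallest limma adjusted p of 0.0997, at 42 days against 5 days.

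Of 27 measured regulators of fibre type, none passed at 5 days against chow, where 22 were higher and the smallest limma adjusted p was 0.0521, for Nfatc1, a calcineurin-dependent factor linked to slow fibre genes. At 42 days, where 5.56% of all genes passed in either direction, 23 of the 27 did not pass against chow and 4 fell: Hdac4, a histone deacetylase that represses Mef2 targets, Sox6, a repressor of slow fibre genes, Myog, the myogenin gene, and Nfatc3, a calcineurin-dependent factor. Their log2 differences were -0.374 for Hdac4 (limma adjusted p = 0.008), -0.243 for Sox6 (limma adjusted p = 0.0268), -0.345 for Myog (limma adjusted p = 0.0275) and -0.208 for Nfatc3 (limma adjusted p = 0.0298). Relative to 5 days 7 fell at 42 days and 20 did not pass, beside 8.52% of all genes past the test, with Hdac4, Nfatc3, Eya1 and Myog at the smallest p. Eya1, a cofactor of homeobox proteins at fast fibre genes, fell by 0.354 there (limma adjusted p = 0.0172). No regulator rose past the test.

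**Figure D4:**
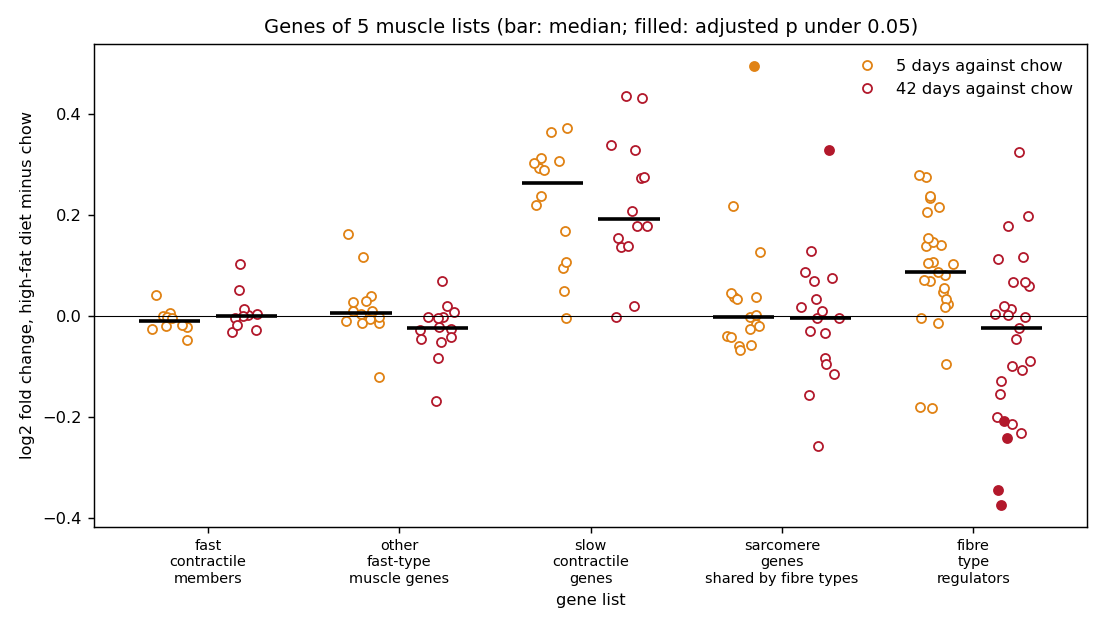
Log2 differences of single genes (points) and their median (bars) in the fast members, other fast-type genes, slow contractile genes, shared sarcomere genes and regulators, at 5 days (orange) and 42 days (red) against chow, with filled points past the test. The 10 fast members cluster at 0, while 13 of 14 slow genes lie above 0 in each contrast with medians of 0.26 and 0.19. Of the fast members, 8 lie at a signal of 15 or more, where no probe set differed by more than 0.0853 at 42 days against chow. The slow genes read lower on the signal scale, and no difference between the lists was tested.

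Transcripts of other tissues differed between the groups as well. Of 8 tendon markers 6 rose at 42 days against chow, with Thbs4 (log2 0.818) and Tnmd (1.09) at the smallest p, and their mean signal ranged from 8.66 to 9.21 at 5 days, from 9.16 to 9.53 at 42 days, and from 8.64 to 8.87 on chow. Of 7 liver transcripts 6 rose at 42 days, Alb by 2.19, and their mean ranged from 7.82 to 9.49 at 5 days, from 9.10 to 10.41 at 42 days, and from 8.13 to 8.51 on chow. Of 8 adipocyte markers 2 (Retn and Cidec) fell at 5 days and none passed at 42 days, with ranges of 9.48 to 9.90 at 5 days, 9.36 to 10.20 at 42 days, and 9.96 to 10.92 on chow. Of 6 brown adipocyte markers Cidea fell at 5 days, of 5 smooth muscle markers Myh11 rose at both times, and none of 4 Schwann cell markers passed against chow. The Myh1 and Myh4 probe sets described above also rose at 42 days against chow. The Myh1 probe set also passed at 5 days, where none of the tendon markers or liver transcripts passed. At 5 days 7 of 8 tendon markers and 6 of 7 liver transcripts were nonetheless higher than on chow. Both lists had a median log2 difference of 0.28 there. The part of these tissues in either rise was not tested. Neither the tendon nor the liver signal was fitted as a covariate. With the adipocyte markers' mean as a covariate, both 42-day rises still passed. The 5-day difference of the Myh1 probe set was then 0.362, beside 0.383 without the covariate, and did not pass (limma adjusted p = 0.117).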

How the data were processed

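Total RNA of 12 skeletal muscle samples was hybridised to Affymetrix arrays, 1 array per sample. The authors deposited log2 signals; per the submitters' processing notes they used RMA, whose version is not given in the sources used here. The table holds 45098 probe sets. Control probe sets (61) were left out, as were those with several symbols (932) or none (9160). Symbols came from the platform annotation, of which 34741 probe sets matched RefSeq by Entrez ID.

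Groups were taken from the labels. No further normalization was applied. limma 3.58.1 in R 4.3.3 was fitted to 18193 genes (each by its probe set of highest mean signal) and, separately, to all 34945 probe sets, with group as the only factor, 9 residual degrees of freedom and 4 arrays per group. Calls required a Benjamini-Hochberg adjusted p under 0.05 over the whole table. Precision is set by the small number of arrays and by a prior variance common to all genes or probe sets. The prior had 5.88 degrees of freedom for genes and 6.06 for probe sets. The fit was tested on simulated data. Every member is named in the text. From each other list the text names up to 4 genes past the test with the smallest p, or up to 2 where none passed. Atp2a1 and Mybpc2, 2 fast-type genes, and Myh3 and Myh8, neighbours in the heavy chain cluster, were added after their values were seen. The members and lists were chosen with earlier results of these data known. Same-numbered replicates were checked for pairing: of 12 pairs, 3 had a correlation of deviations above 0.1, so the numbers were not used to pair samples. Alternatives covered scaling, probe set choice, filters, priors, weights, covariates and single arrays. A promoter window runs from 250 bases before each start, per RefSeq.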

Additional observations from a re-analysis of the deposited data

Results flagged for a closer look

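In 3 of 45 groups (15 probe sets in 3 groups of 4 arrays) a single array stood far from the other 3, and chance gives about 1 in 20. Myh2 read 14.718 in replicate 4 at 42 days, where the nearest array read 14.634. Myl1 read 15.173 in replicate 4 at 5 days, where the nearest read 15.25. Actn3 read 15.132 in replicate 2 on chow, where the nearest read 15.147.

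The difference between the HFD groups, which also differ in age, was itself tested for each probe set. For Myh4 1458368_at it passed, with the 42-day group higher by 0.263 on the log2 scale (limma adjusted p = 0.0336) and all 4 arrays at 42 days above all 4 at 5 days.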

How the results depend on the processing

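Each gene or probe set count was recomputed under other scalings, filters, priors, weights, covariates and sample sets. The gene count of 0 depends on which probe set stands for a gene. With the most variable probe set it was 1 at 5 days, 2 at 42 days, 1 at 42 days against 5 days and 2 in the joint test, and with every probe set counted it was 1, 2, 1 and 2. Averaging all probe sets of each gene gave a count of 2 at 42 days and 1 in the joint test. Myh1 turned direction at 5 days with its most variable probe set, to 0.383, since that setting exchanges the probe set. The probe set count at 5 days, 1 in the fit reported, was 2 after median centring, 2 with a trended robust prior and 2 at an adjusted p under 0.1. It was 0 with the adipocyte covariate, 0 when fitted on the 8 arrays compared, and between 0 and 2 without single arrays. The Myh1 difference behind that call was 0.362 with the covariate and 0.383 on the 8 arrays, beside 0.383 as reported. At 42 days against chow the 2 calls held under every setting run. At 42 days against 5 days the count of 1 was 0 after quantile normalization and between 0 and 1 without single arrays. With replicate number as a block the counts stayed at 0 of 10 genes in every contrast and at 1, 2 and 1 of 15 probe sets. Tnni2 1438608_at passed at 42 days under several settings, for example with array weights (limma adjusted p = 0.0409) or on 8 arrays (0.0373). The causes were not tested, except where the setting itself changes the probe sets or arrays used.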

Other observations

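Myhas, the long non-coding RNA gene between Myh1 and Myh4, read 10.85, 10.74, 10.65 and 10.56 at 5 days, 10.88, 10.63, 10.67 and 10.84 at 42 days, and 11.08, 10.85, 11.13 and 10.93 on chow. All 5-day arrays were below all chow arrays, but the difference of -0.3 ± 0.082 (SE, n = 4 each) did not pass the limma test (adjusted p = 0.0526), nor did that of -0.242 at 42 days (limma adjusted p = 0.0731). It was chosen after its values were seen. Of the developmental heavy chains in the same cluster, Myh3 differed by -0.0647 and Myh8 by -0.0212 at 42 days against chow, neither past the test. Both were also chosen after their values were seen.

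The genes whose signal over the 12 arrays was most like the mean standardised signal of the 10 members were Chrm1 (Pearson's r = 0.848), Atp5pb (0.846), Ppp1cb (0.823), Pld2 (0.814) and Mov10 (0.801), of 8829 genes ranked. The points share their arrays and groups, and the values describe likeness only. The members' mean standardised signal ranged from -0.644 to -0.117 at 5 days, from -0.69 to 1.01 at 42 days and from -0.167 to 0.594 on chow, so that the 42-day arrays span the other groups.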
